A study of Mus musculus with 6 samples.

Results

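Metallothioneins are small, cysteine-rich proteins that bind zinc and copper, and with the zinc carriers of the cell membrane they set how much free zinc a cell holds. The set described here has 6 genes, taken by symbol from the 14147 genes of the table: the metallothioneins Mt1, Mt2 and Mt3, the metal-sensing transcription factor Mtf1, the zinc exporter Slc30a1 (ZnT1) and the zinc importer Slc39a14 (ZIP14). All 6 were listed and tested. Levels are FPKM, that is reads per kilobase of exon and per M reads of the library.

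The samples were primary mouse astrocytes labelled wild type, sampled at 24 h, in 2 groups of 3 libraries. Cells of the first group received human IgG against aquaporin-4 (AQP4-IgG), the water channel of astrocytes that is the antibody target in neuromyelitis optica, and cells of the second a human control IgG (Control-IgG). The series title speaks of conditioned medium, and nothing in the labels tells whether the 3 libraries were separate cultures, so every p-value here rests on a spread that could be technical only. Library totals recovered from the values were 17.9 to 20.6 M reads. Markers of the labelled cell type were present: all 12 astrocyte markers looked up were listed, with summed levels of 523 to 584 FPKM with AQP4-IgG and 481 to 536 FPKM with Control-IgG. All 12 microglia markers were listed as well, at sums of 314 to 355 and 345 to 445 FPKM, and 6 of 8 fibroblast and mural markers at 2044 to 2384 and 2689 to 2947 FPKM. In such bulk samples, fewer cells of a type and less RNA per cell cannot be told apart. Of 9 oligodendrocyte markers 6 were listed, at sums of 222 to 242 and 248 to 260 FPKM. Of 7 neuronal markers 2 were listed, Tubb3 and Map2, and of 5 endothelial markers 3, Cdh5, Flt1 and Kdr. Others of these lists, such as Rbfox3, Snap25, Pecam1 and Cldn5, were not among the genes analysed here.

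Zinc entering a cell is sensed by MTF1, which then binds short metal response elements (MREs) in front of the metallothionein genes and of Slc30a1 and raises their transcription. Mt1 and Mt2 also respond to glucocorticoids, to interleukin-6 with STAT3 and to oxidative stress, and in the brain they are known mainly from astrocytes. Mt3 is the brain-enriched member, made in astrocytes and neurons and less responsive to metals. SLC30 proteins move zinc out of the cytosol and SLC39 proteins move it in. Slc39a14, which also carries iron and manganese, is known from liver as an acute-phase gene raised by interleukin-6.

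The 3 metallothionein genes lie next to each other on the plus strand of chromosome 8 (GRCm38). Mt3 (ENSMUSG00000031760) spans 94152607 to 94154146, Mt2 (ENSMUSG00000031762) 94172664 to 94173568 and Mt1 (ENSMUSG00000031765) 94179082 to 94180327. A further gene of the cluster, Mt4, known from stratified epithelia, was not analysed here. The others lie apart: Mtf1 (ENSMUSG00000028890) on chromosome 4 (124802104 to 124849800, plus strand), Slc30a1 (ENSMUSG00000037434) on chromosome 1 (191906767 to 191913247, plus strand) and Slc39a14 (ENSMUSG00000022094) on chromosome 14 (70303469 to 70351425, minus strand).

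The stretches upstream of the metallothioneins and Slc30a1 are shown to set the promoters of these genes side by side for MRE-like letters. RefSeq promoter windows (GRCm38.p6, 250 bases before to 50 after the transcript start) were found for 5 of the 6 genes, all but Slc39a14. Each stretch is printed 5′ to 3′ on the plus strand and ends before the first annotated transcript base. Capitals mark matches to the MRE core, searched on both strands as TGCACNC and TGCGCNC, with N for any base, and the Mt3 stretch holds 0 of them. The Mt1 stretch is chr8:94178839-94179081, the Mt2 stretch chr8:94172368-94172617, the Mt3 stretch chr8:94152357-94152606 and the Slc30a1 stretch chr1:191906531-191906766.
Mt1: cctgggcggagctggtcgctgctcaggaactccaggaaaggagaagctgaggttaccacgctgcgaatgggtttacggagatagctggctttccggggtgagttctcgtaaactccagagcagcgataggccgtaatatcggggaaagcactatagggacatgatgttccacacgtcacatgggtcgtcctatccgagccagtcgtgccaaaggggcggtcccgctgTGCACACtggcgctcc
Mt2: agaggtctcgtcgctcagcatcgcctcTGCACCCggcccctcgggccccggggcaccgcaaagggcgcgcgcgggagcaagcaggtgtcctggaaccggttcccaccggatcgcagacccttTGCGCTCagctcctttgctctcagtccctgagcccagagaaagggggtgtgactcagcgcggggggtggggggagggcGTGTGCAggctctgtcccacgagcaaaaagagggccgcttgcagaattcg
Mt3: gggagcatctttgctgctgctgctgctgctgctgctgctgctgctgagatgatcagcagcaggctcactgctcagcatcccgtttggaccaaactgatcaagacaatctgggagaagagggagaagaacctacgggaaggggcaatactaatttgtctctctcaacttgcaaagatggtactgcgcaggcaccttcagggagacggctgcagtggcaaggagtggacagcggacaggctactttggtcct
Slc30a1: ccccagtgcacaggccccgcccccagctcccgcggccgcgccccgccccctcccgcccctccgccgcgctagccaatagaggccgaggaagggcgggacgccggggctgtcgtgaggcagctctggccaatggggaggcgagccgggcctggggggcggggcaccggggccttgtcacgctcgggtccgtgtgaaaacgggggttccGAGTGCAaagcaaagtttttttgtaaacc

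Over the whole 300 bases, the window of Mt2 held 4 MRE cores, that of Mt1 3, that of Slc30a1 2, that of Mt3 1 and that of Mtf1 0. None of the matches overlapped another. Of 32817 mouse promoter windows of the same length, 25.7% held at least 1 such core, 1.97% at least 3 and 0.518% at least 4. In Mt1 the matches lay at bases -23 to -17, 2 to 8 and 20 to 26 from the RefSeq start, and in Mt2 at -223 to -217, -128 to -122, -50 to -44 and 4 to 10. The core of the antioxidant response element, the site of the oxidative stress factor NRF2, was searched as TGACNNNGC on both strands. It occurred 1 time each in the windows of Mt2 and Slc30a1 and in 12.4% of all windows. The windows follow the RefSeq start, and sequence more than 50 bases after it was not searched, in Mt1 as in the others. The counts therefore hold for these windows only, and a gene with no match may hold an element outside its window. A match is a run of letters in a window, not a site shown to be bound.

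**Figure D1:**
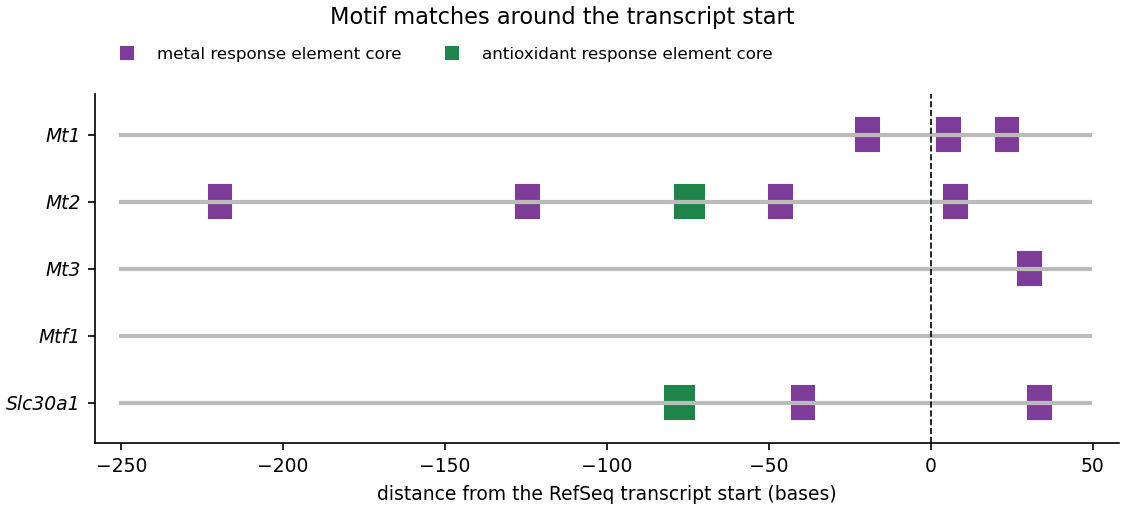
Matches to the metal response element core (purple) and the antioxidant response element core (green) in the promoter windows of 5 genes, plotted by distance in bases from the RefSeq transcript start (dashed line). Mt2 holds 4 metal response element cores and Mt1 holds 3, while the window of Mtf1 holds 0.

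Mt1 and Mt3 were among the most abundant transcripts of these cultures, and both lay lower with AQP4-IgG in every library. Neither passed the test across all genes (limma on log2(FPKM + 1), Benjamini-Hochberg adjusted p under 0.05 over 12334 genes). Mt2 was listed at a small fraction of the level of Mt1, the transcription factor Mtf1 and the exporter Slc30a1 overlapped between the groups, and the importer Slc39a14 lay slightly higher with AQP4-IgG. With limma, 0 of the 6 genes passed, against 2.09% of all tested genes, of which 1.46% were higher and 0.632% lower with AQP4-IgG. At an unadjusted p under 0.05 there were 3 of the 6 (13.3% of all genes), and limma-voom on recovered reads called 1, Mt1. The groups did not overlap in 2 genes that were lower with AQP4-IgG (8.58% of all genes) and in 1 that was higher (10.4%).

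Mt1, the stress-inducible metallothionein, measured 375, 367 and 325 FPKM in AQP4-IgG libraries 1 to 3 and 470, 426 and 422 FPKM in Control-IgG libraries 1 to 3. Every AQP4-IgG library lay below every control library. The means were 355 ± 26.8 and 440 ± 26.6 FPKM (SD, n = 3 each), a ratio of 0.809. On the log2(FPKM + 1) scale the difference was -0.31 (SE 0.065, 95% interval -0.45 to -0.16), with an adjusted p of 0.0537 in limma, just outside the threshold. Mt1 passed with each library scaled to the same median (adjusted p = 0.0275), when only genes averaging 10 FPKM or more were tested (adjusted p = 0.0249) and in limma-voom (adjusted p = 0.00612). In limma it did not pass without the variance trend (adjusted p = 0.112), without robust variance (0.0685), without the filter (0.0688) or with a pseudocount of 0.1 (0.0548). It also did not pass in any of the 6 limma fits that left out 1 library (adjusted p of 0.0797 to 0.146). In the authors' deposited table its adjusted p is 0.00794 and its log2 fold change -0.30. Some summed marker levels also differed between the groups, in either direction. Without overlap between the groups, the fibroblast and mural sum was lower with AQP4-IgG, but it consisted almost wholly of Acta2. Tagln was also lower in all AQP4-IgG libraries (7.72 ± 0.45 and 9.34 ± 0.733 FPKM, log2 difference -0.24, adjusted p = 0.129 in limma). Col1a1, Col1a2, Col3a1 and Pdgfrb overlapped (log2 differences of -0.05 to 0.09). The sum of 6 of 9 oligodendrocyte markers was lower as well (222 to 242 against 248 to 260 FPKM) and consisted mostly of Olig1 (160 ± 9.16 and 176 ± 3.51 FPKM). Olig1 and Olig2 (45.5 ± 2.16 and 51.4 ± 2.09 FPKM) were lower in all AQP4-IgG libraries, while Cnp was higher in all of them. Of 4 oligodendrocyte markers tested, 3 had negative differences. The sum of 3 of 5 endothelial markers was higher (4.93 to 5.48 against 4.43 to 4.85 FPKM). The astrocyte, microglia and neuronal sums overlapped, the last at 40.5 to 43.7 and 40.8 to 44.3 FPKM over 2 of 7 markers. The part of these cells in the difference of Mt1 was not tested.

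Mt3, the brain-enriched metallothionein, measured 344, 297 and 336 FPKM with AQP4-IgG and 364, 362 and 418 FPKM with Control-IgG. The groups did not overlap, but AQP4-IgG 1 lay 18.2 FPKM below the lowest control library, less than the SD within either group. The means were 326 ± 25.4 and 382 ± 31.9 FPKM (SD, n = 3 each), a ratio of 0.854. The log2 difference was -0.23 (SE 0.074, 95% interval -0.40 to -0.057, adjusted p = 0.213 in limma). No alternative fit called it (adjusted p of 0.0738 to 0.493).

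Mt1 and Mt3 ranked 51st and 63rd of the 12334 tested genes by mean level over the 6 libraries. The level of Mt1 relative to Mt3 depends on the exon length used. The merged exons of Mt1 cover all 1246 bases of the gene, introns included, while its first annotated transcript has 549; for Mt3 the lengths are 1066 and 536. Over the first annotated transcripts the recovered reads gave 807 ± 60.8 and 997 ± 60.3 per kilobase and M reads for Mt1 and 648 ± 50.4 and 759 ± 63.4 for Mt3, with AQP4-IgG first. Mt1 had the higher mean of the pair in both groups on both scales, while in FPKM Mt3 exceeded Mt1 in 1 library, AQP4-IgG 3.

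The ratio of Mt3 to Mt1 in FPKM was 0.919, 0.809 and 1.04 with AQP4-IgG and 0.775, 0.85 and 0.991 with Control-IgG, so the groups overlapped. Its means were 0.921 ± 0.113 and 0.872 ± 0.11 (n = 3 each, two-sided exact permutation p = 0.6). The summed level of Mt1, Mt2 and Mt3 was 720, 666 and 663 FPKM with AQP4-IgG and 837, 792 and 842 FPKM with Control-IgG, without overlap. The means were 683 ± 31.8 and 824 ± 27.8 FPKM (n = 3 each, two-sided exact permutation p = 0.1, the smallest p that 3 against 3 can give).

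**Figure D2:**
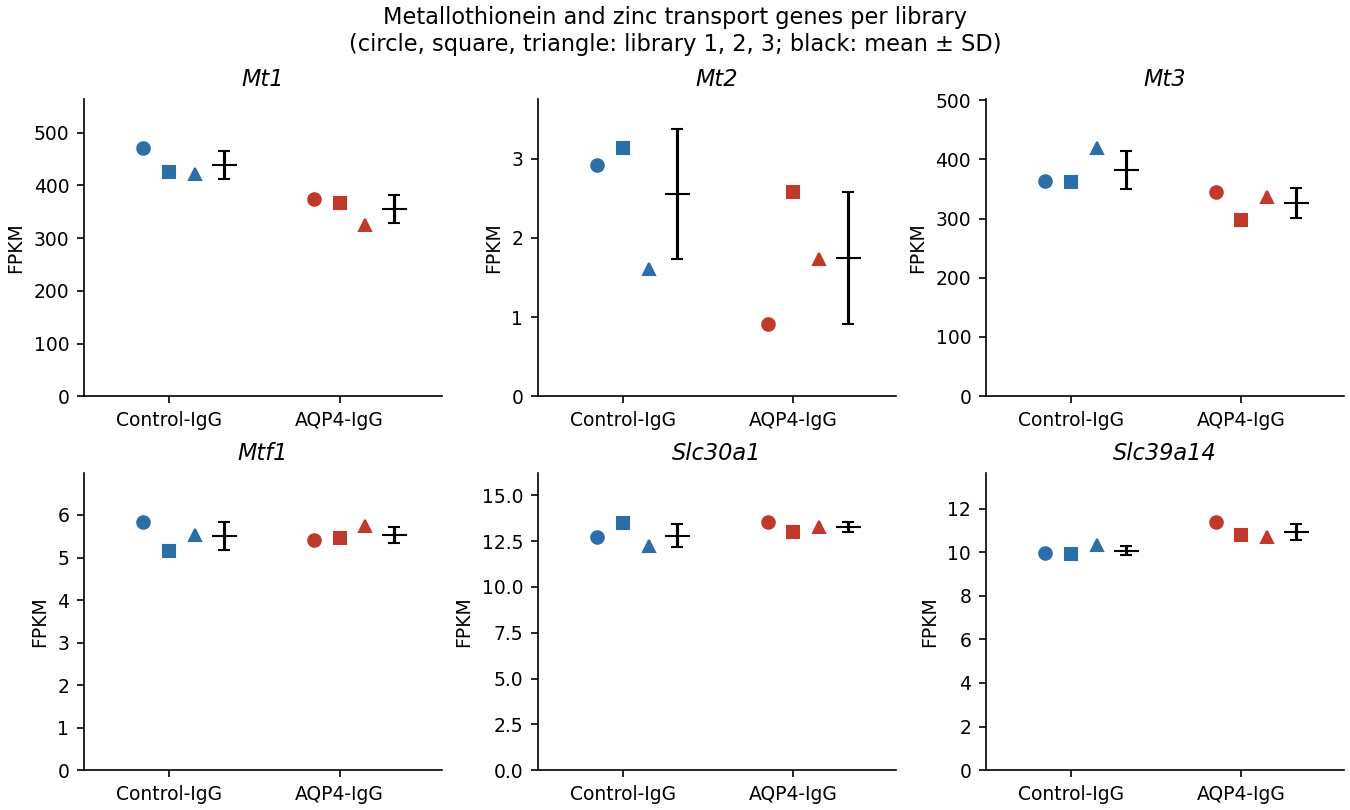
FPKM of the 6 genes in each library (blue, Control-IgG; red, AQP4-IgG; circle, square and triangle for libraries 1, 2 and 3), with the mean and SD of each group of 3 in black and every axis starting at 0. All AQP4-IgG libraries lie below all control libraries for Mt1 and Mt3 and above them for Slc39a14, and the groups overlap for Mt2, Mtf1 and Slc30a1.

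Mt2, which in mouse is usually expressed together with Mt1, measured 0.912, 2.58 and 1.73 FPKM with AQP4-IgG and 2.93, 3.13 and 1.61 FPKM with Control-IgG. AQP4-IgG 1 was the lowest library and Control-IgG 2 the highest, and the groups overlapped. The log2 difference was -0.39 with a 95% interval of -1.08 to 0.29 (adjusted p = 0.668 in limma), so differences in either direction lie within the error. These values rest on 11, 31 and 21 recovered reads with AQP4-IgG and on 35, 33 and 19 with Control-IgG. For the same libraries Mt1 had 8341 to 11919 reads. Exact Poisson 95% intervals, which cover counting error only, ran from 5.49 to 19.7 reads for AQP4-IgG 1 and from 24.4 to 48.7 for Control-IgG 1. The ratio of Mt2 to Mt1 was 0.00494 ± 0.00233 with AQP4-IgG and 0.00579 ± 0.0018 with Control-IgG (n = 3 each, two-sided exact permutation p = 0.6).

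The annotation around Mt2 differs from that of the other metallothioneins. On the minus strand the antisense gene Gm45774 (ENSMUSG00000110588, chromosome 8, 94170748 to 94173412) covers 432 of the 588 exon bases of Mt2, or 73.5%, and leaves 156 bases at its 3′ end. Mt1 and Mt3 share 0 exon bases with genes on the other strand, and Mtf1 and Slc30a1 share 8.09% and 8.92%. Among 100 protein-coding genes of GENCODE M21 with over 70% of their exon bases in exons of the other strand, 13 were in the table, against 8501 of 16654 (51.0%) with no such bases. The share did not fall steadily with overlap: it was 74.7% for genes with up to 25% of their exon bases shared, 62.9% for 25 to 50% and 53.1% for 50 to 70%. Whether the authors counted reads by strand, and what became of reads that fall in genes of both strands, is not given in the sources used here. If all Mt2 reads came from the 156 bases alone, the level over these bases would be 6.57 ± 3.15 with AQP4-IgG and 9.63 ± 3.11 with Control-IgG in reads per kilobase and M reads. The part of the antisense gene in the low value of Mt2 was not tested. None of the 50-base stretches of Mt1, Mt2 or Mt3 occurs in a transcript of another gene on the same strand, so the paralogs do not share stretches of that length with each other.

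**Figure D3:**
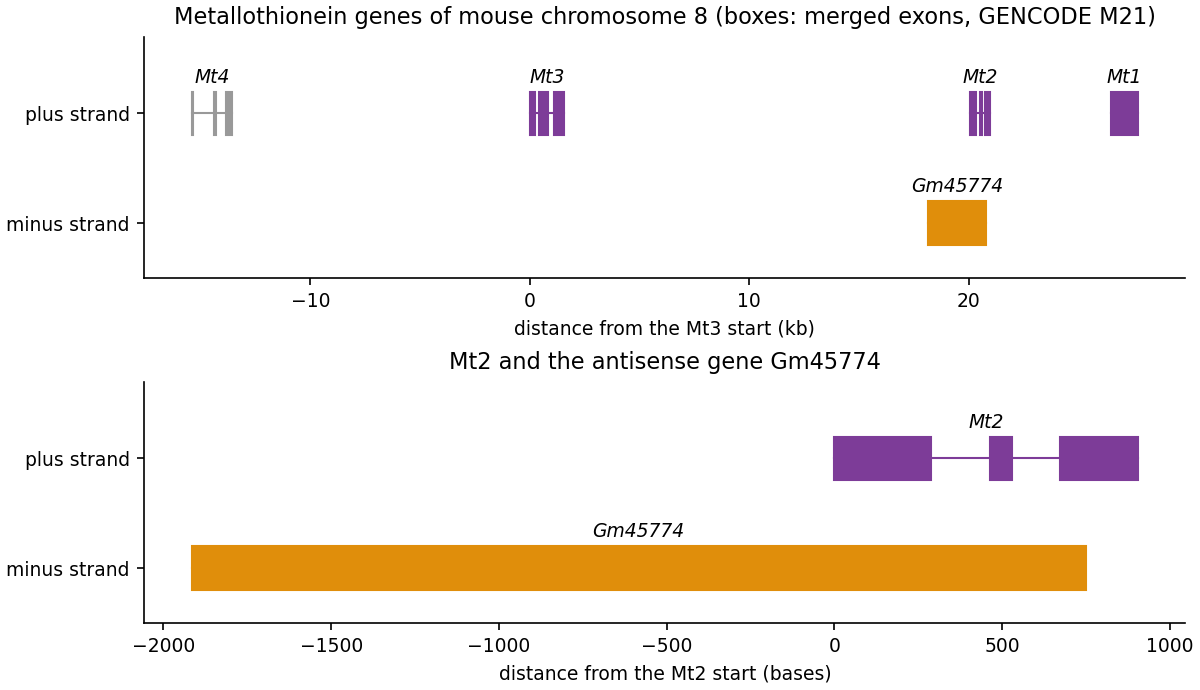
Merged exons of the metallothionein cluster in GENCODE M21, by distance in kb from the Mt3 start (top) and in bases from the Mt2 start (bottom); purple, the 3 genes described; grey, Mt4; orange, the antisense gene Gm45774. Gm45774 covers 432 of 588 exon bases of Mt2 and none of Mt1 or Mt3.

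Mtf1, the zinc sensor that drives this system, measured 5.41, 5.45 and 5.75 FPKM with AQP4-IgG and 5.83, 5.16 and 5.52 FPKM with Control-IgG. The libraries of the groups lay among each other, with means of 5.53 ± 0.184 and 5.50 ± 0.333 FPKM (SD, n = 3 each). The log2 difference was 0.0077 (95% interval -0.13 to 0.14, adjusted p = 0.977 in limma), and its sign turned with median scaling and without AQP4-IgG 3 or Control-IgG 2.

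Slc30a1, the zinc exporter of the plasma membrane and itself a target of MTF1, measured 13.5, 13.0 and 13.3 FPKM with AQP4-IgG and 12.7, 13.5 and 12.2 FPKM with Control-IgG. Control-IgG 2 lay among the AQP4-IgG libraries. The log2 difference was 0.047 (95% interval -0.065 to 0.16, adjusted p = 0.782 in limma), with means of 13.3 ± 0.276 and 12.8 ± 0.629 FPKM (SD, n = 3 each).

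Slc39a14, the importer of zinc, iron and manganese, measured 11.4, 10.8 and 10.7 FPKM with AQP4-IgG and 9.96, 9.92 and 10.3 FPKM with Control-IgG. Every AQP4-IgG library lay above every control library, with means of 10.9 ± 0.367 and 10.1 ± 0.213 FPKM (SD, n = 3 each), a ratio of 1.09. The log2 difference was 0.11 (SE 0.047, 95% interval 0.0038 to 0.22, adjusted p = 0.353 in limma), and no alternative fit called it. Its merged exons cover 10550 bases, against 2098 in its first annotated transcript. Over that transcript alone the same reads gave 55.0 ± 1.84 and 50.6 ± 1.07 per kilobase and M reads, so its rank among the zinc transporters is not fixed by these values.

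**Figure D4:**
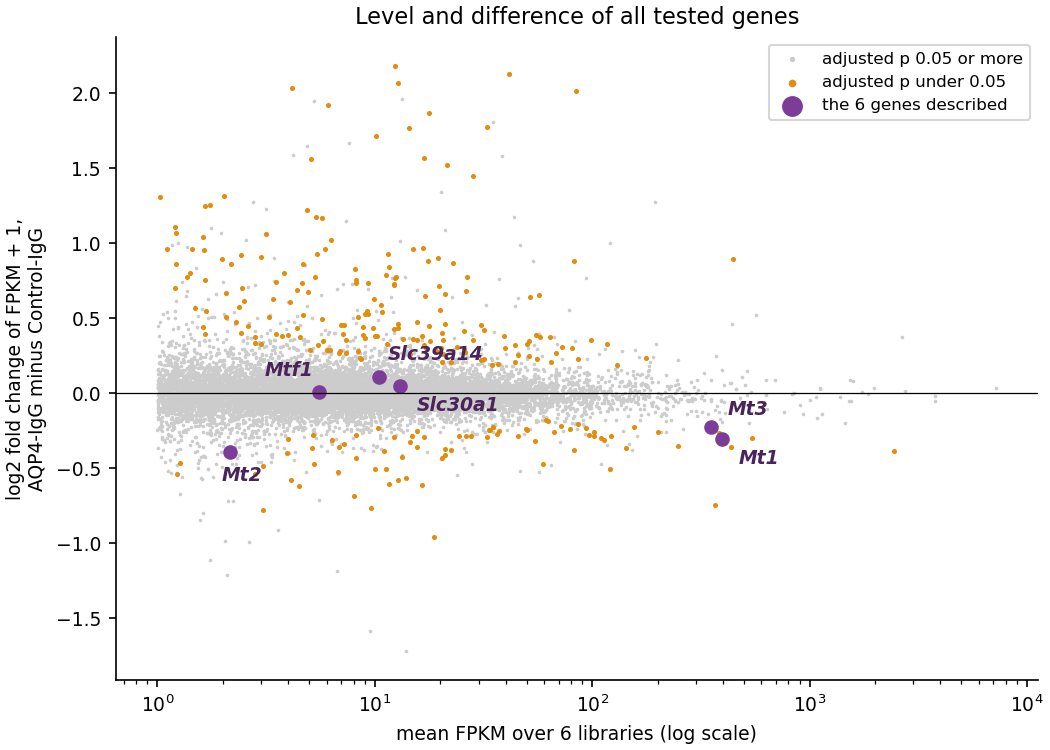
Mean FPKM over the 6 libraries (log axis) against the log2 difference of FPKM + 1, AQP4-IgG minus Control-IgG, for the 12334 tested genes; orange points have an adjusted p under 0.05 in limma and purple points are the 6 genes described. Mt1 and Mt3 stand at the high end of the levels with differences of -0.31 and -0.23.

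The other zinc transporters showed little difference. Of 22 further SLC30 and SLC39 genes looked up, 15 were listed and 14 tested, and 0 passed in limma. At an unadjusted p under 0.05 there were 2 of 14 (13.3% of all genes), Slc39a1 and Slc39a7, the latter named after its values were seen. In limma-voom 0 were called as well. The log2 differences of the 14 ranged from -0.09 to 0.24, with a median of 0.02 beside 0.00 over all genes tested.

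Among the exporters, Slc30a4, which loads zinc into vesicles, had means of 11.5 ± 0.392 FPKM (AQP4-IgG) and 11.4 ± 0.579 FPKM (Control-IgG). Slc30a6, which with Slc30a5 supplies zinc to the secretory pathway, averaged 11.3 ± 0.285 and 11.6 ± 1.42 FPKM. Slc30a9, a mitochondrial zinc carrier, averaged 8.66 ± 0.264 and 8.76 ± 0.21 FPKM. Their adjusted p lay between 0.946 and 0.967, and the sign of each of these differences turned in at least 1 alternative fit. Slc30a1 was thus the exporter with the highest FPKM, but Slc30a4 and Slc30a6 lay within 2 FPKM of it.

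Among the importers, Slc39a1, a widely expressed zinc importer of the plasma membrane, was the most abundant at 106, 96.9 and 94.4 FPKM with AQP4-IgG and 90.0, 89.4 and 88.8 FPKM with Control-IgG. The groups did not overlap (ratio 1.11, log2 difference 0.14, adjusted p = 0.206 in limma). Of its 50-base stretches 21.8% also occur in the pseudogene Slc39a1-ps, so its level is uncertain to that extent. Slc39a6 averaged 40.8 ± 2.24 and 38.2 ± 1.78 FPKM (adjusted p = 0.531). Slc39a13, which carries zinc out of the secretory pathway into the cytosol, averaged 28.5 ± 0.707 and 30.4 ± 0.693 FPKM, lower in all AQP4-IgG libraries (log2 difference -0.09, adjusted p = 0.377).

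**Figure D5:**
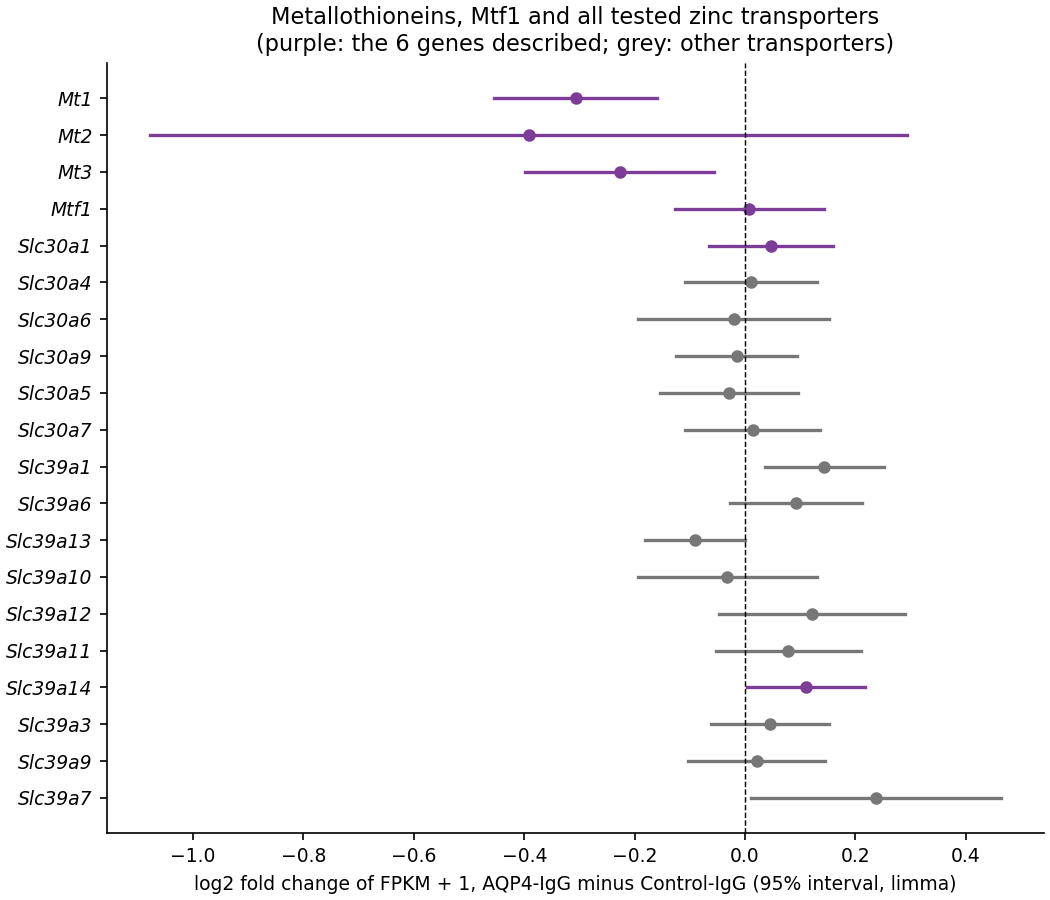
Log2 difference of FPKM + 1 with its 95% interval from limma, AQP4-IgG minus Control-IgG, for the metallothioneins, Mtf1 and every tested SLC30 and SLC39 gene; purple, the 6 genes described; grey, the other transporters. The intervals of Mt1 and Mt3 lie below 0 and that of Mt2 is the widest.

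Other genes under the control of MTF1 or handling metals gave a mixed picture. Of 5 tested MTF1 targets outside the set, 0 passed in limma, 1 had an unadjusted p under 0.05 (13.3% of all genes) and limma-voom called 1. That was Csrp1, a cytoskeletal LIM protein gene, at 155 ± 2.02 FPKM (AQP4-IgG) and 175 ± 6.64 FPKM (Control-IgG), lower in all AQP4-IgG libraries (log2 difference -0.18, adjusted p = 0.0675). The median of this list was -0.03. Of 10 copper handling genes 1 passed, as higher (1.46% of all genes), and 2 had an unadjusted p under 0.05 (13.3% of all genes). The called gene was Cp, the copper-carrying ferroxidase ceruloplasmin, which rose from 58.3 ± 10.4 to 107 ± 6.76 FPKM (adjusted p = 0.0243 in limma). The call on Cp ended without AQP4-IgG 1, 2 or 3 or without Control-IgG 2 (adjusted p up to 0.13). The median of the copper list was 0.07.

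Genes of the other inputs to the metallothionein promoters moved in different directions. Of 11 glucocorticoid-induced genes, 5 fell (0.632% of all genes), 0 rose (1.46%) and 6 did not pass in limma, with a median log2 difference of -0.36. An unadjusted p under 0.05 was found for 9 of the 11 (13.3% of all genes). Among them was Cebpd, named outside the rule, which was higher in all AQP4-IgG libraries. Fkbp5, whose protein holds steroid receptors in a less active state, went down 1.71-fold, from 10.1 ± 0.526 to 5.92 ± 0.235 FPKM (adjusted p = 0.00223). Tsc22d3, the anti-inflammatory factor GILZ, fell from 15.5 ± 0.761 to 10.03 ± 0.712 FPKM and Sgk1, a kinase of ion transport, from 69.4 ± 3.5 to 49.7 ± 2.33 FPKM (adjusted p = 0.00435 for both). The remaining genes that fell, named after their values were seen, were Errfi1 and Klf9, the latter not past the threshold without the variance trend (adjusted p = 0.0725). Klf9 also did not pass in limma without AQP4-IgG 1, 2 or 3 or without Control-IgG 2 or 3 (adjusted p of 0.0594 to 0.139). The count of 5 was 3 without AQP4-IgG 2 and 3 without Control-IgG 2. The glucocorticoid receptor gene Nr3c1 itself, named outside the rule, averaged 23.3 and 22.9 FPKM (adjusted p = 0.91).

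Of 9 acute-phase genes of the interleukin-6 and STAT3 pathway, 3 rose (1.46% of all genes), 0 fell (0.632%) and 6 did not pass, with a median log2 difference of 0.44. An unadjusted p under 0.05 in limma was found for 8 of the 9 (13.3% of all genes), among them Cebpd, which is in both lists. The metalloreductase gene Steap4 rose 6.79-fold, from 1.99, 0.654 and 0.553 FPKM in the control libraries to 8.79, 7.74 and 5.21 FPKM; without Control-IgG 1 the fold was 12.01. The feedback inhibitor gene Socs3 rose 1.42-fold and the protease inhibitor gene Timp1 1.28-fold (adjusted p of 0.0471, 0.0487 and 0.0243 for Steap4, Socs3 and Timp1 in limma). The call on Steap4 also ended in limma-voom (adjusted p = 0.0901) and with a pseudocount of 0.1, that on Timp1 without the variance trend (adjusted p = 0.0646), and that on Socs3 without the trend, the robust variance or the filter and with a pseudocount of 0.1 (adjusted p of 0.0508 to 0.0778). The count of 3 was 0 without AQP4-IgG 1, AQP4-IgG 2, Control-IgG 2 or Control-IgG 3, and 6 without Control-IgG 1. Of 8 factors that act on metallothionein genes 0 passed in limma, 3 had an unadjusted p under 0.05 (13.3% of all genes) and limma-voom called 1. Stat3 had the smallest p of them, at 37.2 ± 2.23 and 31.5 ± 1.56 FPKM (log2 difference 0.23, adjusted p = 0.0781). Of 11 NRF2 targets 0 passed in limma and in limma-voom, and 2 had an unadjusted p under 0.05 (13.3% of all genes). The glutathione reductase gene Gsr had the smallest p, at 27.1 ± 0.891 and 24.0 ± 1.91 FPKM (log2 difference 0.17, adjusted p = 0.239), and the list's median was 0.13. Mt1 was lower with AQP4-IgG, as were the glucocorticoid-induced genes that fell, while the acute-phase genes that rose were higher; the part of these inputs in the level of Mt1 was not tested.

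Cell markers passed in some lists and not in others. Of all tested genes 1.46% passed as higher and 0.632% as lower. Of 12 microglia markers 1 passed, as lower, and 10 had negative differences (median -0.22). An unadjusted p under 0.05 was found for 6 of the 12 (13.3% of all genes), and limma-voom called 2. Of 6 fibroblast and mural markers 1 passed, as lower (median -0.03), and 2 had an unadjusted p under 0.05. Cx3cr1 of microglia fell from 11.9 ± 1.4 to 8.09 ± 0.95 FPKM (adjusted p = 0.0427 in limma). Acta2 of mural cells fell from 2782 ± 147 to 2134 ± 173 FPKM (adjusted p = 0.0243 in limma). The call on Cx3cr1 ended without AQP4-IgG 2 or 3 or Control-IgG 1 or 2, and that on Acta2 without AQP4-IgG 1 or 2 or Control-IgG 2 or 3. Of the 12 microglia markers 5 were lower in all AQP4-IgG libraries (8.58% of all genes) and 1 was higher in all of them (10.4%). The higher one was Itgam, named after its values were seen (log2 difference 0.36, adjusted p = 0.0707 in limma). Of 12 astrocyte markers 3 passed, all higher (1.46% of all genes), and 5 had negative differences, with a median of 0.06. An unadjusted p under 0.05 was found for 4 of the 12 (13.3% of all genes). Aqp4, Slc1a3 and Slc1a2 rose 1.26-, 1.26- and 1.33-fold (adjusted p of 0.0216, 0.0304 and 0.0464 in limma). Each of these calls ended in at least 4 of the 6 fits that left out 1 library. Without the variance trend none of the calls on Cx3cr1, Acta2, Aqp4, Slc1a3 and Slc1a2 held. Olig2, Map2 and Cdh5 had the smallest p among oligodendrocyte, neuronal and endothelial markers (adjusted p of 0.137, 0.682 and 0.162 in limma). Of these lists' 8 members tested in limma 0 passed, and of the 7 tested in limma-voom 0. An unadjusted p under 0.05 was found for 3 of the 8 (13.3% of all genes).

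The genes whose levels followed Mt2 most closely over the 6 libraries were Ubr7, Fahd1, Mrpl24, Ppwd1 and Acyp1, with Pearson correlations of log2(FPKM + 1) of 0.986, 0.984, 0.974, 0.966 and 0.962. For Mt1, a comparison added after the values were seen, the 3 closest were Fam104a, Ctgf and Phgdh, with correlations of 0.991, 0.988 and 0.987. These are descriptions over 6 libraries that share the 2 treatments, and 12 and 36 genes in all correlated above 0.95 with Mt2 and Mt1. The genes were picked as the closest of all tested, so high correlations follow in part from that choice. Mt2 also rested on 11 to 35 recovered reads a library, so counting error enters its profile and its closest genes. Of the genes named here, Phgdh, the first enzyme of serine synthesis, fell with AQP4-IgG (log2 difference -0.38, adjusted p = 0.0138 in limma).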

How the data were processed

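The authors deposited 1 table of 14147 genes with 6 columns of values and their own log2 fold changes and p-values; GRCm38 and mm10 come from the submitters' processing notes. The sources used here do not name the aligner, the counter or the annotation. The value columns, whose header states no unit, were taken as FPKM as deposited: multiplied by exon length in GENCODE M21, 99.0% to 99.1% of values under 200 reads fell within 0.1 of a whole read. These recovered reads gave depth and limma-voom (11535 genes). Columns named NMO and WT were matched to AQP4-IgG and Control-IgG by the submitters' case and control prefixes and numbers. 0 value columns stayed unmapped.

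The test was limma 3.58.1 in R 4.3.3 (trend, robust) on log2(FPKM + 1), which understates changes of low genes, for the 12334 genes averaging 1 FPKM or more. On counts simulated for 11535 genes of this comparison, with the same spread set for every gene, it made 194 calls, 17 of them false. It recovered 62% of the genes changed 1.25-fold and 94% of those changed 1.5-fold. Spread that differs between genes or libraries was not simulated, so these rates may not hold for the data. The 3 libraries of a group were distinct (chi-square of 3.91 to 7.26 a gene). Ratios used exact permutation tests. Intervals of reads cover counting error only.

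Members and lists were chosen with earlier results of these data known. Named were the members, the 3 most abundant other transporters of each family, of each other list the 3 called genes of lowest p at most (with no call, the 1 of lowest p), and the 5 genes most correlated with Mt2. Alternatives were median scaling, no trend, no robust variance, no filter, a filter at 10 FPKM, pseudocount 0.1, a replicate block, limma-voom and each library left out.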

Additional observations from a re-analysis of the deposited data

How the results depend on the processing

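The number of genes past the threshold was 258. It was 495 in limma-voom, 607 with the replicate number as a block, and 55 to 391 with 1 library left out (55 without Control-IgG 2, 66 without AQP4-IgG 2, 81 without AQP4-IgG 1, 117 without Control-IgG 3 and 391 without Control-IgG 1). Same-numbered libraries correlated at 0.20, 0.0089 and 0.20 in their deviations from the group means, and differently numbered ones at -0.27 to 0.082. The libraries numbered 1 and those numbered 3 thus correlated best with each other, while AQP4-IgG 2 and Control-IgG 2 did not. The labels name no pairs, so the numbers were not taken as pairs in the main fit. Whether same-numbered libraries belong together was not settled. Mt1 passed in 4 of 14 alternatives. These were median scaling (-0.32), a mean of at least 10 FPKM (-0.31), limma-voom (-0.31) and the replicate block in limma (-0.31, adjusted p = 0.00524). Without 1 library Mt1 ranged from -0.35 to -0.24. The sign of Mtf1 turned with median scaling (-0.0070) and over the fits without 1 library, which gave -0.031 to 0.043. Slc30a4 turned with median scaling (-0.0055) and ranged from -0.028 to 0.036 without 1 library, Slc30a6 from -0.071 to 0.070 and Slc30a9 from -0.029 to 0.0076. The difference in the Mt2 to Mt1 ratio (-0.00086) ranged from -0.0019 to 0.00040 without 1 library, and that in the Mt3 to Mt1 ratio (0.049) from -0.0079 to 0.11. The cause of these shifts was not tested. Mt2, Mt3, Slc30a1 and Slc39a14 kept their sign and stayed outside the threshold in each alternative that gave a value, with Mt2 (-0.39) at -0.16 without AQP4-IgG 1 and -0.61 without AQP4-IgG 2, and Slc30a1 (0.047) at 0.017 without Control-IgG 3 and 0.082 without Control-IgG 2; the filter at 10 FPKM left out Mt2 and Mtf1. Mt2 rested on 11 to 35 recovered reads a library, a low count whose cause was not tested.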
